A study of Drosophila melanogaster with 4 samples.

Results

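The Bithorax complex is the stretch of chromosome arm 3R that holds the Hox genes Ubx, abd-A and Abd-B. Its coverage by H3K27me2, a mark in which lysine 27 of histone H3 carries a pair of methyl groups, is described here from chromatin immunoprecipitation and sequencing (ChIP-seq) in Drosophila melanogaster embryos. The complex was taken as the window from 12.48 Mb to 12.81 Mb on 3R in FlyBase release 5, which is 330 kb long, with 300 kb on each side as flanks. All 3 genes lie in this window in rising order, Ubx at its low-coordinate end, abd-A between, and Abd-B at its high-coordinate end. The members are the called regions that overlap the window. They were 1 of 12968 regions in ChIP replicate 1, 2 of 11483 in ChIP replicate 2 and 4 of 17184 in the authors' combined list, which they made from the replicate set as a whole.

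The samples were whole embryos of the wild-type strain Oregon-R aged 14 to 16 h. Antibody Ab24684 was used for the 2 ChIP samples, beside which stand 2 inputs, with no treatment and no mutant group. Each deposited list gives regions of significant enrichment with a score from the authors, and no read counts, so depth is unknown and sequence outside all regions is called uncalled, not unmarked. Whole embryos mix cells in which a Hox gene is active with cells in which it is silent, and a region list cannot be divided between them. The lists hold no levels of genes, so the labelled stage and tissue could not be checked against markers.

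H3K27me2 is placed by Polycomb repressive complex 2, the same enzyme complex that makes the trimethylated form H3K27me3. Hox genes give body segments their identity, and Polycomb proteins keep them silent in the segments where they were not activated early in development. The Bithorax complex is the classic target of this repression in flies, known for wide H3K27me3 domains, whereas H3K27me2 is known to be spread over much of the remaining silent and intergenic chromatin. Ubx specifies the third thoracic and the first abdominal segment. In flies abd-A acts in the anterior and middle abdomen, and Abd-B acts in the posterior abdomen and genitalia.

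Between these genes lies mostly regulatory sequence and noncoding transcription. In the RefSeq gene table of release 6, used here for names and order only, all 3 members were found, and 13 other genes start between the starts of Ubx and Abd-B. Of these, 7 are long noncoding RNAs, among them lncRNA:bxd, lncRNA:iab4 and lncRNA:iab8, and 2 are microRNA genes, mir-iab-4 and mir-iab-8, whose products are known to target Ubx and abd-A. A further 1 is an antisense RNA, asRNA:PS4, and 3 are protein-coding, namely CG31275, Glut3, whose name marks it as a glucose transporter, and MSAmiP. The nearest protein-coding neighbours outside the complex are modSP, a serine protease gene of the Toll pathway, next to Ubx, and VhaM9.7-d, which codes for a subunit of the vacuolar proton pump, next to Abd-B. Regions were not assigned to single genes, because the positions of these genes on release 5 were not used here.

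The Bithorax complex was almost empty of called H3K27me2 regions. In replicate 1, 369 bp of the 330 kb window lay in a region, which is 0.112%. In replicate 2, 2126 bp were covered, or 0.644%. The mean covered share was 0.378% ± 0.376 (SD, n = 2), and the authors' combined list covered 4965 bp, or 1.50%. The same lists covered 30.6%, 24.0% and 48.4% of the whole arm 3R.

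**Figure D1:**
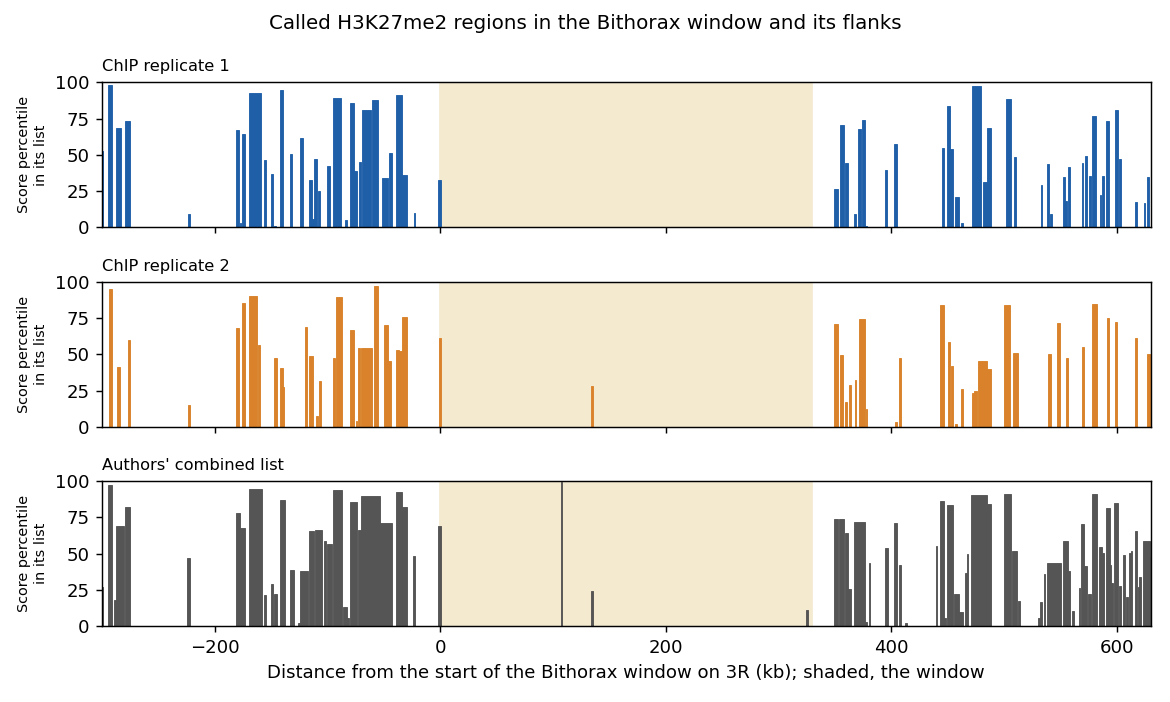
Called H3K27me2 regions by distance from the start of the Bithorax window (kb), 1 panel per list. Each bar is 1 region with its true width, its height is the percentile of its score within its list, and the shaded area is the window. The window holds 1 region of replicate 1, 2 of replicate 2 and 4 of the combined list, whereas each flank holds between 28 and 52.

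Both flanks had covered shares near that of the arm. In the flank next to the Ubx end, 35.8% of the sequence was covered in replicate 1 and 26.9% in replicate 2, with a mean of 31.4% ± 6.27 (SD, n = 2). In the flank next to the Abd-B end the values were 30.9% and 25.8%, with a mean of 28.3% ± 3.60 (SD, n = 2). Among all 300 kb windows of 3R, placed every 10 kb, the Ubx-side flank had a covered share at or above that of 73.2% of windows in replicate 1 and 66.1% in replicate 2. For the Abd-B-side flank these values were 52.2% and 61.8%. In the combined list the Ubx-side flank, at 46.7%, was just below the median window of 48.2% (at or above 44.6% of windows), and the Abd-B-side flank, at 53.4%, was above it (64.4%).

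The window lay below its flanks in each list. The difference between the window and both flanks together was -33.2 percentage points in replicate 1 and -25.7 points in replicate 2, with a mean of -29.5 ± 5.31 (SD, n = 2). In the authors' combined list it was -48.5 points. The lowest flank value of either replicate, 25.8%, lay far above the highest window value, 0.644%, so the areas did not overlap. No test was run, because exact sign flipping over 2 samples gives a two-sided permutation p of 0.5 at best.

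**Figure D2:**
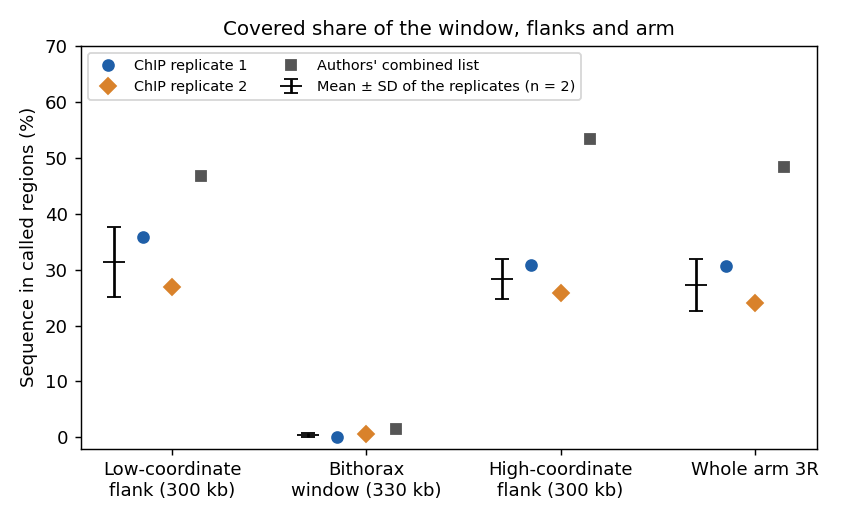
Percent of sequence in called regions in the window, each flank and the whole arm 3R. Points are single lists, and bars are the mean ± SD of the ChIP replicates (n = 2). The window sits at 0.112% and 0.644% in the replicates, and no flank value is below 25.8%.

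Counted in 10 kb steps, 1 of the 33 bins of the window touched a region in replicate 1, where the background over 3R was 73.6% of bins. In replicate 2 it was 2 of 33, against a background of 66.6%. The combined list touched 4 of 33 bins, against a background of 83.5%. In the Ubx-side flank 22 of 30 bins were touched in replicate 1 and 21 in replicate 2, and in the Abd-B-side flank 23 and 22, all close to the background. In the combined list the flanks lay on either side of its background of 83.5%. There 73.3% of bins were touched on the Ubx side and 93.3% on the Abd-B side. With bins of 30 kb, 7 of the 11 bins of the window were uncalled in all 3 lists, whereas 95.1% of such bins on 3R held a region of some list. The flanks had 1 uncalled bin among their 20, so they were not evenly covered. It lies in a stretch of the Ubx-side flank from 12205125 to 12256075 that was uncalled in replicate 1 (50951 bp), and the longest such stretch of that flank in replicate 2 was 51457 bp.

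The regions that bound the empty stretch lay at nearly the same bases in every list. On the Ubx side the last region ended at 12480369 in replicate 1, at 12480750 in replicate 2 and at 12480722 in the combined list, a range of 381 bp. On the Abd-B side the next region outside the window began at 12829676, 12829474 and 12829498, a range of 202 bp. For comparison, over 1480 pairs of regions on 3R that overlap only each other, the replicates differed by a median of 305.5 bp in their starts and 314.0 bp in their ends. The replicates therefore placed both borders about as closely as they placed other region edges. The rule's window ends between 19474 and 19676 bp short of the Abd-B-side border, so the poorly covered stretch is a little longer than the window.

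Between these borders, replicate 1 had no region in 349306 bp. Replicate 2 had 1 region in 348723 bp, covering 0.395% of it. The combined list had 3 regions in 348775 bp, covering 1.22%. The border region on the Ubx side stood alone. In replicate 1 the next region towards lower coordinates ended at 12457829, and in replicate 2 at 12450283.

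Every region that overlaps the window can be named. The border region on the Ubx side spans 12478386 to 12480369 in replicate 1 (1984 bp), 12478507 to 12480750 in replicate 2 (2244 bp) and 12478316 to 12480722 in the combined list (2407 bp). It reaches only 369, 750 and 722 bp into the window. Within its list its score lay at percentile 32.5 for replicate 1, at 60.9 for replicate 2 and at 69.4 for the combined list. It was the single region of the window called in both replicates, and its reach in replicate 1 is all that replicate 1 called in the complex.

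Well inside the complex, replicate 2 called 1 region of 1376 bp, from 12613953 to 12615328. Its width lay at percentile 7.97 of its list and its score at percentile 28.0, so it was among the narrow and lower-scoring calls. Replicate 1 had no region there. The combined list has a matching region from 12613984 to 12615544 (1561 bp) that shares 1345 bp with it and scores at percentile 24.6. This region parts the empty stretch of replicate 2 into one of 133202 bp on the Ubx side and one of 214145 bp on the Abd-B side.

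The other regions of the window appear in the combined list alone. A region of 1671 bp from 12804134 to 12805804, near the Abd-B end, scored at percentile 11.5. A region of 1011 bp from 12587254 to 12588264 carried a score of 1.40, at percentile 99.4, against a median of 0.429 over the list. Both had 0 bp in regions of either replicate. The narrowest region is 1301 bp wide in each replicate list and 1001 bp in the combined list. Whether the caller set a lower limit on width was not tested. Of the 3771 combined regions on 3R, 7 scored at least as high as the region of 1011 bp, this one included, with a median width of 1001 bp, and none of the 7 overlapped a region of either replicate. Over the whole combined list 113 regions scored at least as high. Of these, 26 lie on the 5 major arms, and 83 are at most 1100 bp wide. The score is a value from the authors whose scale is not named, and the depth behind this call is unknown.

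**Figure D3:**
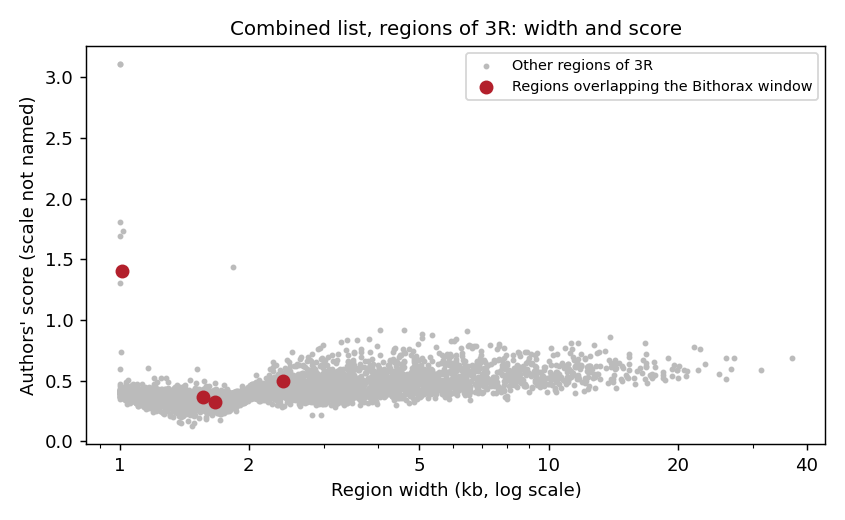
Width (kb, log scale) and authors' score of all regions of 3R in the combined list (grey) and of the 4 that overlap the Bithorax window (red). The region of 1011 bp with a score of 1.40 lies apart from the main cloud, and the other 3 lie within it.

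No stretch of the window stood out as covered. Since gene limits on release 5 were not used, the window was cut into 3 equal parts of 110 kb, which are not gene borders. The low part, at the Ubx end, was covered to 0.335% in replicate 1 and 0.682% in replicate 2, all of it the border region. The middle part was covered to 0.0% and 1.25%, the second value being the single inner region of replicate 2. The high part, at the Abd-B end, had no region in either replicate. In the combined list the 3 parts had 1.58%, 1.42% and 1.52%. Each part held at most 1 region per replicate, too few to rank the parts.

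On the arm as a whole, no comparable window was as empty. Of 2758 windows of 330 kb on 3R, placed every 10 kb, 2 had a lower covered share than the Bithorax window in each of the 3 lists, and both overlap it. Among the 2693 windows that do not overlap it, none was as low in any list. The lowest of these in the replicates ran from 17170000 to 17500000, with 5.62% covered in replicate 1 and 3.75% in replicate 2. The next, from 2610000 to 2940000, had 6.44% and 4.69%, and was the lowest in the combined list at 9.53%. For the median window the covered share came to 30.3% in replicate 1 and 23.6% in replicate 2, with 48.3% in the authors' combined list. These ranks are a description of 1 arm, since overlapping windows are not independent. Which genes lie in the other low windows and long uncalled stretches of 3R was not examined. Whether other gene clusters share the low cover was therefore not tested.

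**Figure D4:**
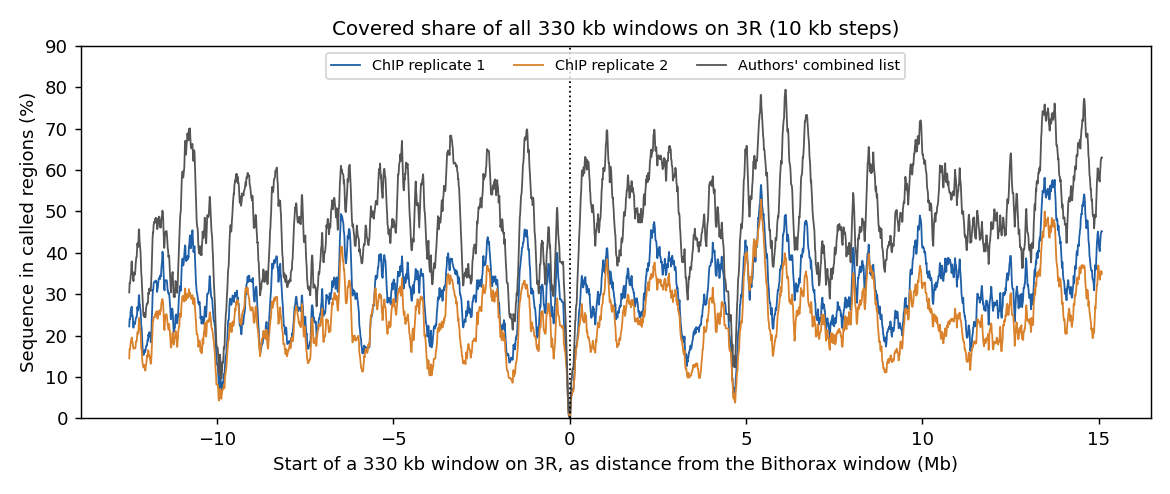
Percent of sequence in called regions for every 330 kb window on 3R, by the distance of its start from the start of the Bithorax window (Mb), 1 line per list. The dotted line marks the Bithorax window, next to which all 3 lines reach their lowest values, in the window that starts 10 kb further on (0.0%, 0.417% and 1.29%), and the deepest other minima lie at 17170000 and 2610000, with 4.69% ± 1.32 and 5.57% ± 1.24 covered (SD, n = 2).

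Windows of the other major arms were lower in replicate 2 only. In replicate 1 no window of X, 2L, 2R or 3L was lower, the nearest being 2R from 300000 to 630000 with 1.06%. In the combined list none was lower either, and the lowest of another arm was 4.56% on 2R from 60000 to 390000. In replicate 2, 15 windows of 2R were lower, down to 0.0% from 50000 to 380000. Those windows lie at the proximal end of 2R, next to the centromere. The lowest windows of 2L and 3L also lay at the proximal ends of their arms, at 22670000 to 23000000 and 23450000 to 23780000 in replicate 1. The Bithorax complex is in the middle of 3R, with covered flanks on both sides. On X the lowest window was near the proximal end in replicate 1, but within the arm in replicate 2, from 4260000 to 4590000 with 2.53%, and in the combined list, from 4280000 to 4610000 with 7.96%.

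The uncalled stretches give the same picture in lengths. The stretch of 349306 bp in replicate 1 was the longest on any of the 5 major arms. Of its length, 329631 bp lie in the window and the rest in the Abd-B-side flank. The whole stretch was 2.57 times as long as the longest stretch of 3R outside the complex, 135829 bp from 2737953 to 2873781. In replicate 2 the longest stretch that reaches into the window measured 214145 bp, of which 194672 bp lie in the window. It was the longest on 3R and the third longest on the major arms. It came after 379535 bp at the proximal end of 2R and 218937 bp well within 3L, from 18225229 to 18444165. It was 1.57 times the longest stretch of 3R outside the complex. In the combined list the stretch of 188589 bp from 12615545 to 12804133 was the longest on the major arms and 1.73 times the next on 3R outside the complex. The median uncalled stretch of 3R measured 2547 bp in replicate 1, whereas it reached 3150 bp in replicate 2 and only 1217 bp in the authors' combined list.

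**Figure D5:**
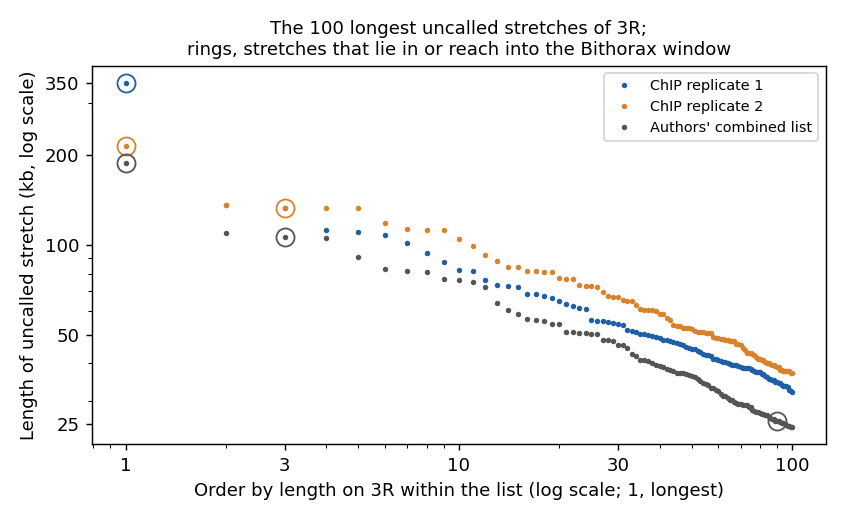
Length (kb, log scale) of the 100 longest uncalled stretches of 3R in each list, in order of length (log scale). Rings mark stretches that lie in or reach into the Bithorax window, which head each list at 349306, 214145 and 188589 bp; the shortest, of 23693 bp in the combined list, ranks 107 and is not shown.

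Of the 5 longest stretches of 3R uncalled in all 3 lists, the complex held 2, of 188589 bp and of 106503 bp, the latter from 12480751 to 12587253 at the Ubx end. The other 3 ran from 17234241 to 17343505 (109265 bp), from 11785825 to 11890883 (105059 bp) and from 25324310 to 25415031 (90722 bp). A shorter inner stretch, of 25688 bp from 12588265 to 12613952, lay between them.

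Flank regions on the Ubx side had a higher median width and score percentile than the arm in each list, most of all in the combined list. On the Abd-B side the median widths of the replicates were close to those of the arm. Median widths of flank regions in replicates 1 and 2 were 2502 and 2294.5 bp on the Ubx side. On the Abd-B side they were 2102 and 2021 bp, against 2153 and 2000 bp on the whole arm. Median scores lay at percentiles 47.3 and 54.6 on the Ubx side and 43.8 and 49.2 on the Abd-B side, where the arm had 43.9 and 42.1. In the combined list the Ubx-side regions had a median width of 3613 bp and a median score percentile of 66.2, against 2497 bp and 43.1 on the arm, and the Abd-B-side regions had 2165 bp and 48.7. The widest flank regions of the combined list were 16905 bp from 12409930 to 12426834 and 13989 bp from 12951142 to 12965130, at percentiles 99.0 and 98.3 of its widths. The densest flank sequence lay close to the complex on the Ubx side. From 90 to 30 kb before the window, the 30 kb bins were covered to 66.3% ± 5.94 and 66.6% ± 5.48, and the last 30 kb before the window to 8.66% ± 3.87 (SD, n = 2). On the Abd-B side the bins next to the window had 24.7% ± 3.29 and 34.3% ± 0.198 (SD, n = 2). The nearer of them includes the uncalled flank sequence, 19474 to 19676 bp long, between the window and the border region.

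Around the complex the replicates overlapped at least as far as on the whole arm. In the Ubx-side flank the shared length was 61.7% of the length covered in either replicate, and 24 of 33 regions of replicate 1 overlapped a region of replicate 2. In the Abd-B-side flank the shared length was 51.4%, and 27 of 37 regions of replicate 1 overlapped. On the whole arm the shared length was 50.5%. In the window itself only 369 bp were shared of 2126 bp covered in either, so agreement there is agreement on which sequence was uncalled.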

How the data were processed

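The deposited files are region lists, 1 per ChIP sample and 1 for the replicate set, on FlyBase release 5 per the file headers. Each region has a score that the authors deposited without naming its scale, so scores were compared only within a list, mostly as percentiles. The submitters' processing notes name Bowtie 0.12.7. The caller with its threshold, how reads were mapped and how replicates were pooled remain not given in the sources used here. Depth is unknown. Per the labels' protocols, embryos were fixed in 1.8% formaldehyde, and antibody was left on chromatin for 15 h. Whether separate embryo collections gave the 2 ChIP samples is not in the labels, so their spread may be technical.

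Covered share was the union of regions divided by the length of the area. Windows of 330 kb moved in 10 kb steps. A bin was called with at least 1 bp in a region. Named were all regions overlapping the window, the nearest and widest flank regions, and the 5 longest uncalled stretches of 3R. The window, lists and alternatives were chosen with earlier results of these data known. The planned comparison of homeodomain sequences was not run, and no sequence was used here. Inputs entered no comparison. Python 3.11.15 and numpy 2.4.6 were used, and the code for intervals was checked against simulated regions with known coverage.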

Additional observations from a re-analysis of the deposited data

How the results depend on the processing

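The window stayed below its flanks under each alternative run. The difference ranged from -48.5 points (combined list) to -17.8 (median score of the list as a lower limit), with -34.9 for flanks of 150 kb. With a window this empty, the difference mostly follows the covered share of the flanks. Its sign could therefore hardly change when regions were filtered or merged, flanks resized or a replicate left out. The covered share of the window, 0.378% as the mean of the replicates, was 1.50% in the combined list. It was 0.872% with the window extended by 20 kb at each end, which by construction takes in parts of the flanks. It was 0.237% with the window trimmed by 20 kb and 0.114% with the median-score limit. The share of 3R windows at or below the Bithorax window, 0.109%, was 0.163% with the median-score threshold. It was 0.181% with the window trimmed by 20 kb at each end and 0.0545% with it extended. With windows of all 5 major arms it was 0.0894% ± 0.0903 (SD, n = 2), and the replicates differed. In replicate 2, 15 windows of 2R were lower, whereas in replicate 1 no window of another arm was. With windows laid end to end the share was 1.20%. In that last setting the Bithorax window itself was the lowest in both replicates, so 1.20% is the smallest share possible there. Called 10 kb bins, 1.5 on average over the replicates, were 4 in the combined list, 3.5 with the extended window, 0.5 with the trimmed window or the median-score threshold, and 0.0 where 50% of a bin had to be covered. Leaving out a ChIP replicate gave covered shares of 0.112% to 0.644%, differences of -33.2 to -25.7 points, 1 to 2 called bins and longest stretches of 214145 to 349306 bp. Equal numbers of top-scoring regions and merging of regions less than 1 kb apart left the covered share of the window at 0.378%. Neither could have changed it. The first keeps all 11483 regions of replicate 2, and only 8759 regions of replicate 1 score at least as high as its region in the window. For the second, no replicate region of the window lies within 1 kb of another. No paired analysis was possible because the ChIP samples share replicate numbers only with inputs that have no region list here. Without read counts, sequence that was unmarked, that fell short of the threshold or that no read could map to cannot be told apart.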
